A study of Mus musculus with 8 samples.

Results

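Secreted proteins of the Wnt pathway were examined in white adipose tissue of Ad/NICD mice beside wild-type (WT) mice. Ad/NICD mice carry more of the intracellular domain of Notch1, the fragment of this receptor that acts in the nucleus, through overexpression. All mice were 5 weeks old, of a mixed 129 × C57BL/6 strain and on regular chow. The 10 genes were chosen by name: the ligands Wnt10b, Wnt5a and Wnt11, the secreted modulators Sfrp1, Sfrp2, Sfrp4, Sfrp5, Dkk2 and Dkk3, and the fat expansion gene Mest. They are 10 of 25093 gene names that passed the filter on dim probes, and they were read by 12 probes whose accession maps to their symbols. RNA of 4 Ad/NICD mice and 4 WT mice was hybridised to 4 arrays with 2 colours each, so that each array carried the same-numbered sample of each genotype. The sources used here name no fat depot, sex, promoter or Cre line.

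Ratios are log2 of red over green signal, taken as Ad/NICD over WT. This is the likely direction, because the authors' deposited value table holds the green channel in its WT columns and the red channel in its Ad/NICD columns. The dye tag of each sample gives the reverse, and if the tags are right every ratio below changes its sign and the levels belong to the other genotype. No array had its dyes swapped, so a dye bias of a probe and the genotype cannot be told apart. Well above background were 56.2% to 65.9% of red and 55.6% to 60.6% of green signals, by the scanner's flags on the arrays of replicates 2 to 4 and by rebuilt flags on that of replicate 1. Precision is limited by there being 4 arrays. Samples are labelled as biological replicates. The pair of replicate 4 stood apart from the others in both genotypes. There, the Y-linked gene Eif2s3y had log2 signals of 10.83 in the Ad/NICD sample and 10.95 in the WT sample, against 5.81 to 6.06 in the other 6 samples. Xist, the RNA that silences one X chromosome in females, had 5.87 and 6.12 in that pair, against 10.15 to 10.45 elsewhere. Its markers of mammary epithelium also had a mean log2 signal of 6.97 in the Ad/NICD sample and 6.91 in the WT sample, against 9.35 to 10.85 in the others. The ratios of the 10 genes are therefore also given without replicate 4.

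Wnt proteins are lipid-modified ligands that bind Frizzled receptors with the co-receptors Lrp5 and Lrp6, which keeps beta-catenin from being degraded and lets it act with TCF/LEF factors on DNA. In fat, Wnt10b signals through beta-catenin and holds precursor cells back from becoming adipocytes, and Wnt5a, which acts largely without beta-catenin, also restrains fat cell formation. Secreted frizzled-related proteins (the Sfrp genes) bind Wnt ligands outside the cell, Dickkopf proteins such as Dkk2 bind the Lrp co-receptors, and Dkk3 is a divergent family member. Mest is an imprinted gene, expressed from the paternal copy, whose level in fat is known to rise with fat mass expansion and to vary widely between genetically identical mice.

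The promoter windows of the members, from 250 bases before to 50 bases after a transcription start in RefSeq on GRCm38.p6, were searched for short motifs on both strands. The motifs were TGGGAA, the core of the site of RBPJ, the DNA-binding partner of the Notch intracellular domain, and CTTTGAT, a core of the TCF/LEF site. They share no overlap in the windows shown. Of the 10 members, 6 had a window in the table (Wnt10b, Wnt11, Sfrp2, Sfrp5, Dkk2 and Mest), 9 windows in all. The RBPJ core was present in 2 overlapping windows of Mest and in no window of the other 5, where 25.6% of 32851 promoter windows hold it. The TCF/LEF core was present in 1 window of Wnt11, where 3.73% of all windows hold it. The windows of Wnt11 (plus strand, chr7:98834862-98835161) and of Mest (plus strand, chr6:30737800-30738099) are shown because they are the ones with a match, which is in capitals:
Wnt11: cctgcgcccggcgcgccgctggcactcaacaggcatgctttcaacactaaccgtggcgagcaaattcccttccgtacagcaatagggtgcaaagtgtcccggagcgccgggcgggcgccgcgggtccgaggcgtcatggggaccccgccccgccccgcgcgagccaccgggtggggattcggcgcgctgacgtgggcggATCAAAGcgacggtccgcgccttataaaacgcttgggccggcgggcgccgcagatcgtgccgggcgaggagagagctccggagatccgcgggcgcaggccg
Mest: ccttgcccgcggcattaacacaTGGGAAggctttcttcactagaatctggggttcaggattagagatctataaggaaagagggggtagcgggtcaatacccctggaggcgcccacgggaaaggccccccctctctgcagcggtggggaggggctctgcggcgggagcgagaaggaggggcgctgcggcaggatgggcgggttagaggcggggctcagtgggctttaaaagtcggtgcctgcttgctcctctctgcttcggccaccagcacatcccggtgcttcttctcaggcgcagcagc
The Wnt11 match is ATCAAAG, the reverse complement of the TCF/LEF core, and begins 51 bases before the start. The Mest match, TGGGAA, begins 228 bases before its start. A match of these letters is a description of the sequence, and no binding was measured here.

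None of the 10 members differed between Ad/NICD and WT fat past the threshold, an adjusted p of 0.05 in limma with Benjamini-Hochberg adjustment over all gene names. Over all 25093 gene names 12 passed, or 0.0478% (0.0279% higher and 0.0199% lower). Treating the array as a random block, 0 of 10 members passed where 1.99% of gene names did, and in separate channels without the block 0 passed where 1.03% did. At an unadjusted p of 0.05, 2 of 10 members lay below it, against 15.2% of gene names, and the same 2 did so with the random block (17.4% of gene names) and without the block (14.9%). These were the modulator Sfrp4, on the higher side, and the ligand Wnt11, on the lower side. They were also the members whose Ad/NICD and WT levels did not overlap, 2 of 10 where 9.8% of gene names did not overlap (4.25% with Ad/NICD higher and 5.55% with Ad/NICD lower). Of the mean ratios 5 lay above 0 and 5 below, with a median of 0.017, and the median size of the ratio was 0.279 where it was 0.100 over all gene names. All 10 members were above background in both channels on all arrays, which the filter did not require. Ratios of dim probes are pulled toward 0, as described for Wnt10b below, so these 2 sizes are not from sets of like brightness. In bulk tissue fewer cells of a type and less RNA per cell cannot be told apart, for these and all later values.

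**Figure D1:**
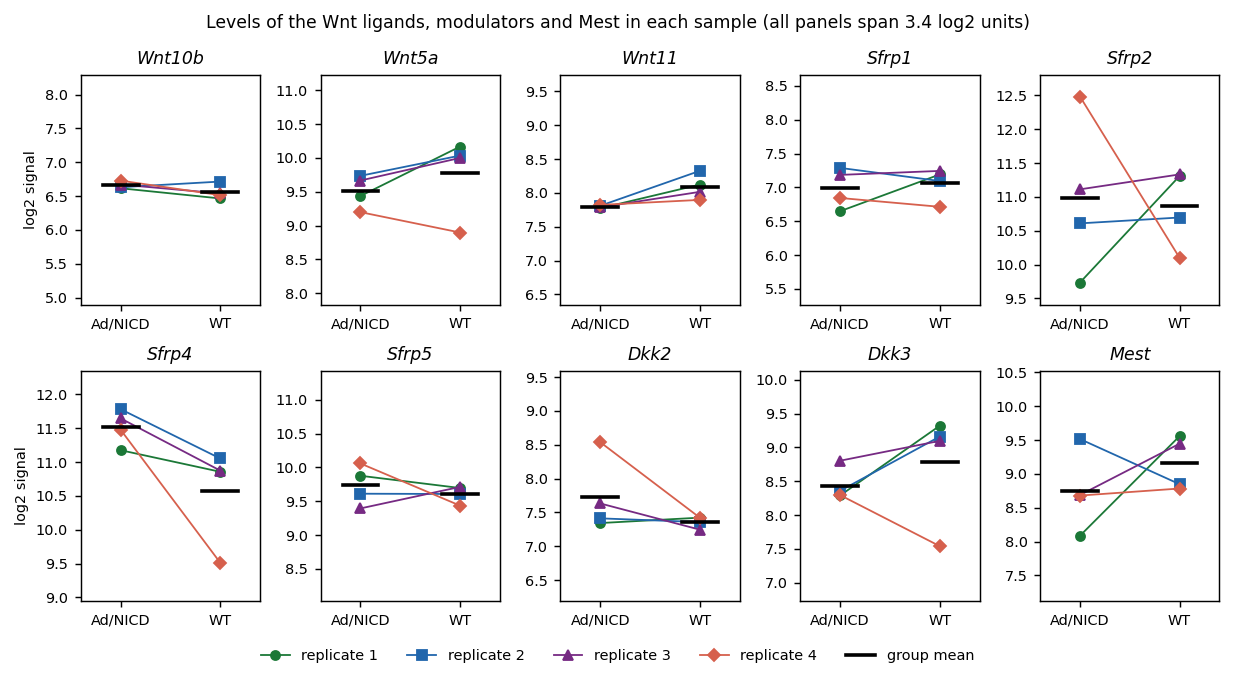
Log2 signal (vertical axes, each spanning the same number of log2 units) of the 10 genes in each Ad/NICD sample (left) and WT sample (right), with a line joining the samples of 1 array and a black bar for each group mean (n = 4 each). Sfrp4 and Wnt11 are the genes whose groups do not overlap, and the lines of replicate 4 (red diamonds) often slope against the others, as for Wnt5a and Dkk3.

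Wnt10b, the ligand best known for holding back fat cell formation, was close to the lower end of what the arrays measured. Its log2 signals were 6.62, 6.63, 6.67 and 6.73 in the Ad/NICD samples of replicates 1 to 4, against 6.47, 6.72, 6.54 and 6.51 in the WT samples. The ranges overlapped, with WT replicate 2 near the top of all samples. Signals not above background had medians between 5.92 and 5.96 on the same scale. The Wnt10b ratio was 0.10 ± 0.074 (SE, n = 4 arrays; limma adjusted p = 0.567), with a 95% interval from -0.08 to 0.29, and it was higher on 3 of 4 arrays. The offset of 50 added to the signals pulls ratios of dim probes toward 0. With the processed signals of the scanner, which have no such offset, the Wnt10b ratio was 0.32 (adjusted p = 0.429), and with an offset of 16 it was 0.17 (adjusted p = 0.516). It was 0.01 with arrays centred on their medians in place of loess, and 0.066 without replicate 4.

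Wnt5a had log2 signals of 9.44, 9.74, 9.67 and 9.20 in Ad/NICD samples, against 10.17, 10.04, 10.001 and 8.90 in WT samples. On the arrays of replicates 1 to 3 each Ad/NICD sample lay below every one of the 3 WT samples, while WT replicate 4 was the lowest of all samples. The ratios were -0.73, -0.30, -0.33 and 0.30 on the 4 arrays, with a mean of -0.27 ± 0.17 (SE, n = 4; limma adjusted p = 0.520) and a 95% interval from -0.70 to 0.16. Without replicate 4 the mean was -0.45 ± 0.115 (SE, n = 3; limma adjusted p = 0.175), with an interval from -0.76 to -0.15. With median centring, which moved the median of all gene names to -0.32, the Wnt5a ratio was -0.78 (adjusted p = 0.127).

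Wnt11, a ligand that acts mostly without beta-catenin, had log2 signals of 7.77, 7.81, 7.79 and 7.82 in Ad/NICD samples, against 8.12, 8.33, 8.02 and 7.90 in WT samples. Every Ad/NICD sample lay below every WT sample, and the Ad/NICD samples spread over 0.050 log2 units, where the WT samples spread over 0.429. The ratio was -0.29 ± 0.090 (SE, n = 4), a fold of 0.817 with a 95% interval from 0.698 to 0.956, and it was lower on 4 of 4 arrays (limma adjusted p = 0.242). Over all gene names 13.3% were lower on 4 of 4 arrays. The smallest difference was on the array of replicate 4, at -0.07, and without it the mean was -0.36. With median centring, where the median of all gene names was -0.32, the Wnt11 ratio was -0.68 (adjusted p = 0.0786). That fit also tests against 0, and 9613 gene names lay below an unadjusted p of 0.05 in it, against 3825 with loess.

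Sfrp4, which binds Wnt ligands and is made in fat, had the largest mean ratio of the 10 genes with loess. Its log2 signals were 11.18, 11.78, 11.65 and 11.48 in Ad/NICD samples, against 10.86, 11.05, 10.87 and 9.51 in WT samples. All Ad/NICD samples lay above all WT samples, and WT replicate 4 was far below the other WT samples. The ratios were 0.32, 0.73, 0.77 and 1.97 on the 4 arrays, with a mean of 0.95 ± 0.27 (SE, n = 4), a fold of 1.93 with a 95% interval from 1.19 to 3.11 (limma adjusted p = 0.223). Without replicate 4 the mean was 0.61 ± 0.118, a fold of 1.52 (limma adjusted p = 0.136). Over all gene names 11.2% were higher on 4 of 4 arrays. With median centring, which moved the median of all gene names to -0.32, the Sfrp4 ratio was 0.45 (adjusted p = 0.428). Measured from 0 and not from that median, it was smaller in size than those of Mest, Dkk3, Wnt5a and Wnt11. Those 4 ratios lay on the side of the shift.

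Sfrp2, a relative of Sfrp4 from fibroblast-like cells, differed between the arrays in both directions. Its log2 signals were 9.73, 10.61, 11.11 and 12.48 in Ad/NICD samples, against 11.31, 10.70, 11.33 and 10.10 in WT samples. The Ad/NICD samples held both the lowest and the highest value of all 8, in replicates 1 and 4. The ratios were -1.57, -0.09, -0.22 and 2.38, and their mean of 0.13 ± 0.62 (SE, n = 4; limma adjusted p = 0.947) had a 95% interval from 0.364-fold to 3.26-fold. Without replicate 4 the mean was -0.63 ± 0.328 (adjusted p = 0.391). The SD over Ad/NICD samples was 1.15 for Sfrp2, where the median SD over all gene names was 0.136 and the 95th percentile 0.480.

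Sfrp1 and Sfrp5, further Wnt-binding modulators, had mean ratios near 0. Sfrp1 had log2 signals of 6.65, 7.29, 7.18 and 6.84 in Ad/NICD samples, against 7.19, 7.09, 7.24 and 6.71 in WT samples. The groups overlapped, and the ratio of -0.07 ± 0.14 (SE, n = 4; limma adjusted p = 0.849) was lower on 2 of 4 arrays. It was -0.14 without replicate 4 and -0.29 with median centring. Sfrp5, which in fat is known to bind Wnt5a, had 9.88, 9.61, 9.39 and 10.06 in Ad/NICD samples, against 9.70, 9.61, 9.71 and 9.43 in WT samples. The highest and the lowest of all 8 values were both Ad/NICD samples, and the ratio was 0.12 ± 0.16 (SE, n = 4; limma adjusted p = 0.758). Without replicate 4 the Sfrp5 ratio was -0.044 (adjusted p = 0.872). Sfrp2 and Sfrp5 both turned below 0, to -0.37 and -0.39, with median centring, and both then lay below the median of all gene names of -0.32, which was -0.0059 with loess.

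Dkk2, which blocks Wnt signalling at the Lrp co-receptors, had log2 signals of 7.34, 7.41, 7.63 and 8.54 in Ad/NICD samples, against 7.42, 7.36, 7.24 and 7.42 in WT samples. The WT samples lay within 0.178 log2 units of each other, and Ad/NICD replicate 4 was the one sample well above the rest. The ratio was 0.37 ± 0.21 (SE, n = 4; limma adjusted p = 0.469), and it was 0.12 ± 0.115 without replicate 4 (adjusted p = 0.621). The Dkk2 ratio was 0.61 with the scanner's processed signals and 0.06 with median centring. Dkk3 had 8.29, 8.36, 8.80 and 8.29 in Ad/NICD samples, against 9.32, 9.16, 9.10 and 7.54 in WT samples. As for Wnt5a, the Ad/NICD samples of replicates 1 to 3 lay below the WT samples of those replicates, and WT replicate 4 was the lowest of all. The Dkk3 ratio was -0.34 ± 0.30 (SE, n = 4; limma adjusted p = 0.646), and -0.71 ± 0.162, a fold of 0.612, without replicate 4 (limma adjusted p = 0.157). It was -0.81 with median centring (adjusted p = 0.199), where the median of all gene names was -0.32.

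**Figure D2:**
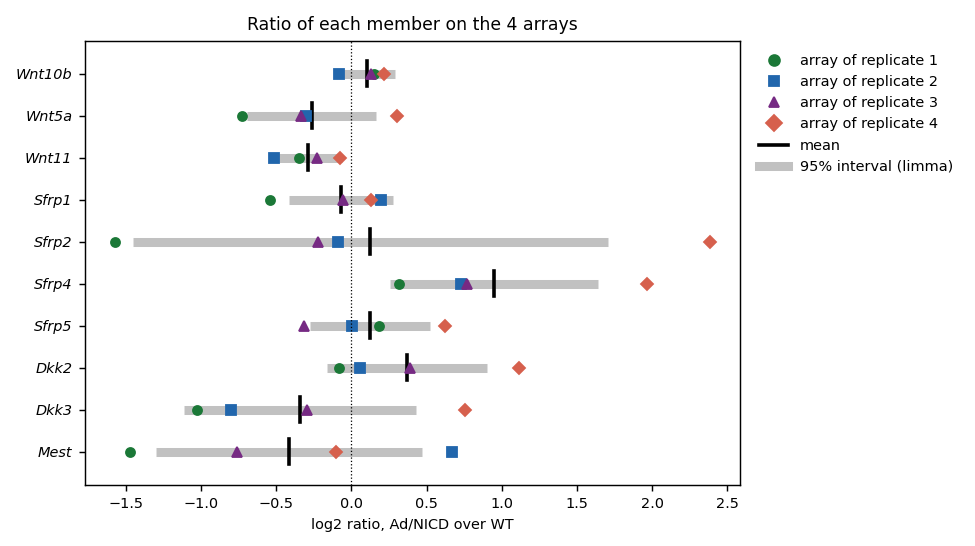
Log2 ratio of Ad/NICD over WT (horizontal axis) for the 10 genes on each of the 4 arrays, with the mean (black line) and limma's 95% interval (grey bar). The intervals of Wnt11 and Sfrp4 do not reach 0, but neither gene passed after adjustment over all gene names, and the array of replicate 4 (red diamonds) often lies to the right of the others.

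Mest showed large differences between samples and no common direction. Its brightest probe had log2 signals of 8.09, 9.52, 8.69 and 8.68 in Ad/NICD samples, against 9.56, 8.85, 9.45 and 8.78 in WT samples. The groups overlapped over most of their range, with the lowest value in Ad/NICD replicate 1 and nearly equal top values in Ad/NICD replicate 2 and WT replicate 1. The ratio was -1.47, 0.67, -0.76 and -0.10 on the 4 arrays, with a mean of -0.42 ± 0.35 (SE, n = 4; limma adjusted p = 0.627) and a 95% interval from 0.406-fold to 1.38-fold. Without replicate 4 it was -0.52, and as the mean over all Mest probes -0.28. With median centring, where the median of all gene names was -0.32, it was -0.90 (adjusted p = 0.192). The SD of Mest was 0.588 over Ad/NICD samples and 0.400 over WT samples, where the median gene name had 0.136 and 0.132.

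The brightest Mest probe is printed as 10 spots. These share 1 labelled RNA and 1 hybridisation, so their spread holds no labelling or hybridisation error. Within each array the SD of the ratio over these spots was between 0.068 and 0.124, against an SD of 0.914 between the 4 arrays. The spots spanned -1.65 to -1.22 on the array of replicate 1, 0.49 to 0.77 on that of replicate 2, -0.83 to -0.59 on that of replicate 3 and -0.26 to 0.10 on that of replicate 4. A different Mest probe, made for another transcript accession, had ratios of -1.14, 0.71, -0.89 and -0.22, the same signs on all 4 arrays. The remaining Mest probe was dim, above background on 3 of 4 arrays in each channel, and had -0.36, 0.28, -0.23 and 0.20. Spots and probes of 1 array share the same RNA and are not replicates of the genotype.

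**Figure D3:**
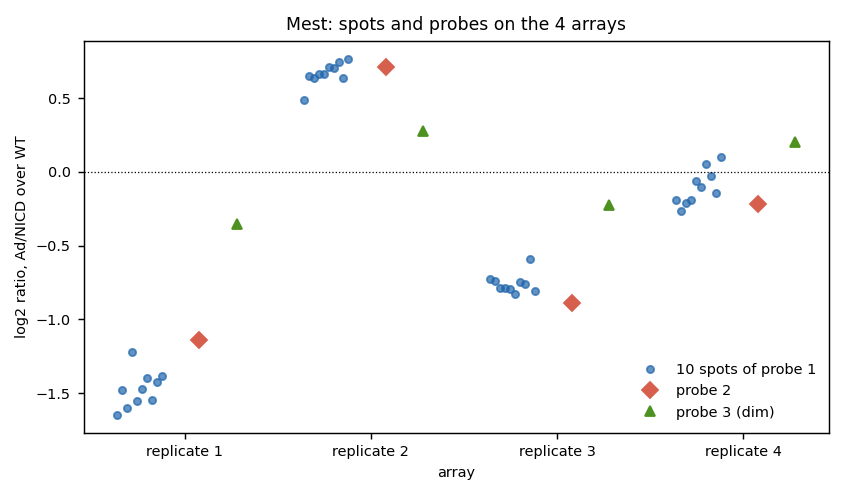
Log2 ratio of Ad/NICD over WT (vertical axis) for Mest on each array (horizontal axis): the 10 spots of its brightest probe (blue circles), the mean of a second probe (red diamonds) and of a dim probe (green triangles). Spots of 1 array lie close together, while the arrays of replicates 1 and 2 lie on opposite sides of 0.

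Across the members, the pair of replicate 4 differed from the other pairs in several genes. On its array 8 of the 10 ratios were above 0, against 3, 5 and 3 on the other arrays. In order of replicate, the medians of the 10 ratios were -0.45, -0.04, -0.22 and 0.46. The shares of all gene names above 0 were 45.9%, 47.7%, 48.8% and 51.4%. WT replicate 4 was the lowest WT sample for 8 of the 10 genes, where over the whole array it was the lowest for 31.5% of gene names. Ad/NICD replicate 4 was the highest Ad/NICD sample for 5 of the 10, where over the whole array it was the highest for 32.6%. Leaving that pair out, 4 of 10 members had groups that did not overlap, where 25% of gene names did not, with Wnt5a, Wnt11 and Dkk3 lower (15.1% of gene names) and Sfrp4 higher (9.83%). Still 0 of 10 passed in limma, where 43 gene names or 0.171% did, and 4 of 10 lay below an unadjusted p of 0.05, where 18.2% of gene names did. Only 1 pair had this pattern of sex-linked genes, so a difference between pairs by sex was not tested.

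Markers of other cell types differed between the arrays along with several members. Of 12 markers of adipose progenitors and fibroblasts, all were measured, 11 had a mean ratio above 0 and 0 passed. Their median ratio was -0.45, 0.52, 0.13 and 1.03 on the 4 arrays. It was lowest on the array where the ratios of all members but Wnt10b, Wnt11 and Sfrp5 were lowest. It was highest on that of replicate 4, as were the ratios of all members but Sfrp1 and Mest. The medians of every other cell type list but mammary epithelium and skeletal muscle were also highest there. The progenitor and fibroblast markers had a mean log2 signal of 12.40 to 12.91 in Ad/NICD samples, against 11.82 to 12.83 in WT samples, and WT replicate 4 was the lowest. The part of these cells in the ratios of the members was not tested.

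Adipocyte markers had 9 of 12 mean ratios below 0, with mean log2 signals of 12.66 to 13.52 in Ad/NICD samples, against 13.57 to 13.92 in WT samples. None passed in the fit of ratios. In the random block fit Adig and Retn, both made by adipocytes, passed on the lower side (adjusted p = 0.0226 and 0.0473), and Adig also passed without the block (0.035). Endothelial markers had 8 of 8 mean ratios below 0, with Cldn5, a tight junction gene, past the threshold in the random block fit (adjusted p = 0.0311). Nerve and glia markers had 6 of 7 above 0, with S100b, a calcium-binding protein that adipocytes also make, past it with and without the random block (adjusted p = 0.0238 and 0.048). These 4 marker genes were named after their values were seen. Mammary epithelium markers had array medians of -0.92, -1.16, 0.25 and 0.02. Of their 10 genes, 8 were measured, and Csn2 and Wap were not above background on enough arrays. Without replicate 4 this list had mean log2 signals of 9.35 to 10.85 in Ad/NICD samples, against 10.29 to 10.44 in WT samples. Krt5 and Krt14, keratins of the basal mammary layer, and Krt8 and Krt18, keratins of the luminal layer, belong to this list. The mean level of this list was low in both samples of replicate 4. Trp63, also of this list, went the other way, with its highest levels there (11.29 in Ad/NICD and 11.18 in WT). WT replicate 4 was also the lowest WT sample for 8 of the 10 members, Wnt5a and Dkk3 among them, while Ad/NICD replicate 4 was the highest Ad/NICD sample for 5 of the 10. The part of the mammary list in those levels was not tested. Skeletal muscle markers were below 0 on all 4 arrays, with a median of -3.64 on that of replicate 4. There the mean log2 signal of the list was 8.57 in the Ad/NICD sample, against 11.31 in the WT sample and 7.54 to 8.94 in the other WT samples. Macrophage markers had array medians of -0.62, 0.42, 0.16 and 0.77, the same order of arrays as the progenitor markers. The part of these lists in the ratios of the members was not tested either.

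**Figure D4:**
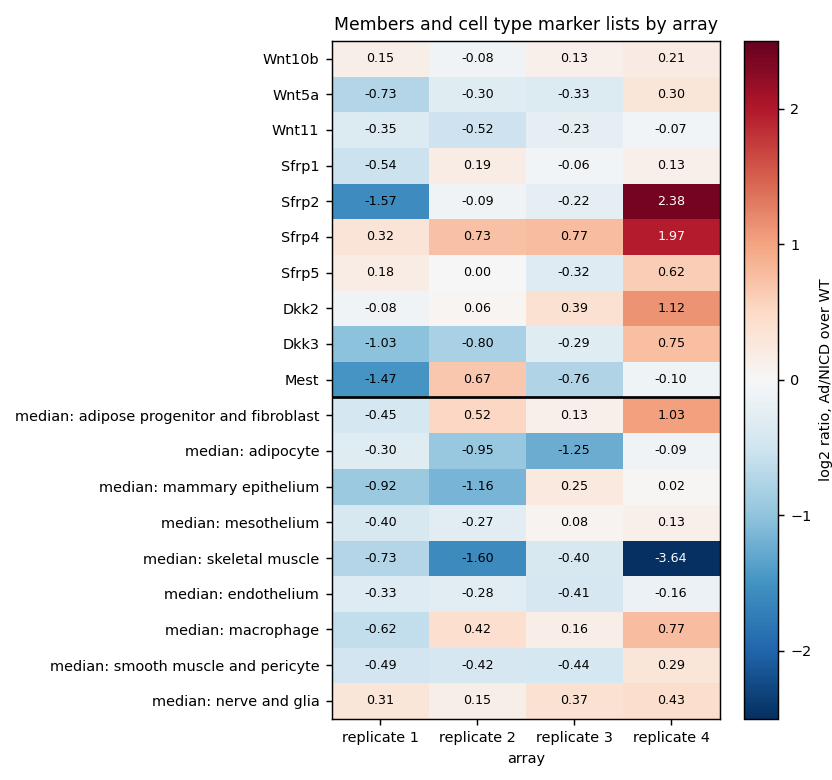
Log2 ratio of Ad/NICD over WT on each array for the 10 genes (above the line) and the median ratio of each list of cell type markers (below it), with red for higher and blue for lower in Ad/NICD; colours stop at the ends of the bar and the value is printed in each cell. All genes but Sfrp1 and Mest, and all lists but mammary epithelium and skeletal muscle, have their highest value on the array of replicate 4.

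The rest of the Wnt pathway was described from lists of 108 genes in all, of which 94 were measured, 9 of them members. Of these 94 genes 0 passed in limma in either direction, 0 with a random block for the array and 0 in separate channels. At an unadjusted p of 0.05, 7 were higher and 7 lower, where 6.26% and 8.99% of all gene names were. The median ratio of the 94 genes was 0.036, with 55 above 0, and it was -0.0059 over all gene names. Centred on array medians, 11 of the 94 lay above 0, and 49 lay above the median of all gene names of -0.32. The signs of the list medians below therefore hold relative to loess, and with that centring all 7 Wnt list medians were below 0, from -0.61 to -0.17.

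Among the 19 Wnt ligands 13 were measured, with a median ratio of -0.08 and 8 of 13 below 0. Besides Wnt11, Wnt7b had -0.15 ± 0.068 and Wnt16 -0.13 ± 0.063 (SE, n = 4), both lower on 4 of 4 arrays and both near background, with adjusted p-values of 0.387 and 0.406 in limma. With the scanner's processed signals Wnt7b had -0.80 and Wnt16 -0.33. Of 21 secreted modulators 16 were measured, with a median of 0.10 and 12 of 16 above 0. Dkkl1, a relative of Dkk3 known from the testis, had -0.68 ± 0.23 (adjusted p = 0.272), and Notum, an enzyme that removes the lipid from Wnt ligands, had 0.18 ± 0.083 (adjusted p = 0.398). Porcn and Wls, which attach that lipid and carry ligands to the surface, had 1 ratio above and 1 below 0.

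Receptors and co-receptors had a median of -0.05 over 23 measured genes, with Fzd3, a Frizzled receptor, at -0.29 ± 0.105 (adjusted p = 0.302). Lgr4, a receptor for R-spondins, had -0.09 ± 0.057, and Kremen2, a receptor for Dickkopf proteins, had -0.09 ± 0.068. Both were above background on 3 of 4 arrays in the red channel, and with the scanner's processed signals, which have no offset, Lgr4 had -0.85, Kremen2 -0.68 and Fzd3 -0.48. Cytoplasmic relay genes had a median of 0.03 over 20 genes. There, the casein kinase Csnk1d had 0.27 ± 0.073 and Apc2, a relative of the tumour suppressor Apc, had 0.19 ± 0.070, while Dvl2, which relays the signal from Frizzled, had -0.25 ± 0.071. Their adjusted p-values in limma were 0.204, 0.289 and 0.223. With median centring Csnk1d and Apc2 turned to -0.10 and -0.16, both above the median of all gene names of -0.32 under that scaling.

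Nuclear factors had a median of 0.17, with 9 of 11 measured genes above 0. Their array medians were 0.62, 0.17, 0.08 and -0.13. The beta-catenin cofactors Pygo2 and Bcl9l had 0.33 ± 0.092 and 0.36 ± 0.122, and the corepressor Tle2 had -0.36 ± 0.111 (limma adjusted p = 0.213, 0.275 and 0.247). With median centring Pygo2 and Bcl9l turned to -0.11 and -0.09, both above the median of all gene names of -0.32 under that scaling. Wnt target genes had a median of 0.05, with 11 of 16 measured genes above 0. Axin2, the target most often used to read the pathway, had 0.04 ± 0.079 (adjusted p = 0.843), and was named after its value was seen. Its log2 signals of 6.20 to 6.49 were close to the lower end of what the arrays measured. With the scanner's processed signals, which have no offset, the Axin2 ratio was 0.20 (limma adjusted p = 0.782). Nkd2, a feedback inhibitor, had 0.10 ± 0.065 (adjusted p = 0.529).

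Ccn5, also called Wisp2, had the largest ratio of the Wnt lists. It encodes a secreted matricellular protein made by adipose precursor cells and induced by Wnt signalling. Its log2 signals were 9.65, 11.19, 9.96 and 9.45 in Ad/NICD samples, against 8.43, 9.04, 8.40 and 8.20 in WT samples. Every Ad/NICD sample lay above every WT sample. The ratio was 1.54 ± 0.172 (SE, n = 4; limma adjusted p = 0.106), above 0 on 4 of 4 arrays, and 1.64 without replicate 4. With a random block for the array its adjusted p was 0.0541, and over 14 alternatives the Ccn5 ratio ran from 1.05 to 1.77 with adjusted p-values of 0.0541 to 0.568.

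**Figure D5:**
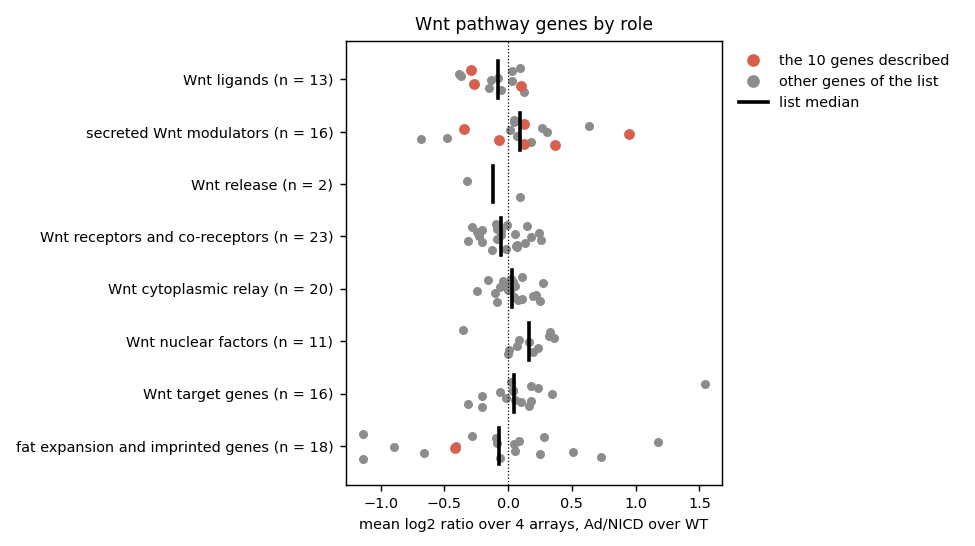
Mean log2 ratio of Ad/NICD over WT (horizontal axis, n = 4 arrays) of each measured gene in lists of Wnt pathway genes by role and in the list of fat expansion and imprinted genes, with the list median (black line). Ccn5 is the point at 1.54 among the Wnt targets, and the 10 genes described are in red.

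Mest was also set beside genes that share its imprinting or its link to fat expansion. Of these 18 genes, including Mest, all were measured and 1 passed in limma, where 0.0478% of all gene names did. It was Bmp3, a secreted factor of the BMP family whose level in fat has been linked to fat expansion alongside Mest and Sfrp5. Bmp3 had log2 signals of 6.98, 7.15, 7.23 and 7.01 in Ad/NICD samples, against 8.22, 8.42, 8.29 and 7.98 in WT samples. The groups did not overlap, and Bmp3 fell by 1.14 ± 0.078 on the log2 scale (SE, n = 4; limma adjusted p = 0.0433). Its call was lost without replicate 1, 2 or 3 (adjusted p = 0.164, 0.212 and 0.449) and kept without replicate 4 (0.048), while the ratio ran from -1.19 to -1.09 over these fits. It was also lost under 5 of the other 10 alternatives, with ratios of -1.69 to -1.14 and adjusted p-values of 0.0746 to 0.432. In the random block fit Cdkn1c, an imprinted inhibitor of the cell cycle, also passed (adjusted p = 0.0449), where 1.99% of all gene names did. In the fit of ratios Cdkn1c had -0.90 ± 0.182 (SE, n = 4; adjusted p = 0.150). H19, an imprinted RNA, had -1.14 ± 0.177 (limma adjusted p = 0.129), and Nnat, an imprinted membrane protein, had 1.18 ± 0.215 (limma adjusted p = 0.134). The list's median was -0.08, with 8 of 18 above 0.

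The genes whose levels followed the members most closely over the 8 samples are given as a description. Both samples of a pair are on 1 array, and replicate 4 stands apart. The nearest to Wnt5a were Rab27b (Pearson r = 0.989), Stmnd1 (0.980) and Cys1 (0.979). Nearest to Mest were Dnajc16 (0.957), Nup98 (0.941) and Zfp433 (0.940), and nearest to Sfrp5 were Unc5b (0.953), Card14 (0.948) and Dleu7 (0.920). Nearest to Wnt10b were Klhl26 (0.959), Gm8801 (0.953) and Tubgcp4 (0.945). Among the members themselves the closest pair was Wnt5a and Dkk3, with r = 0.949 over the same 8 samples.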

How the data were processed

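The submitters' processing notes name Agilent Feature Extraction 11.5. Each spot of the deposited tables has an intensity and a background in either channel, and a log10 ratio of red over green processed signal, which was not used here. The authors' deposited value table is on a log2 scale with each column's upper quartile near 0 and column medians of -3.84 to -3.52, and each column followed 1 channel of its array. Same-numbered tables of both genotypes were identical on 4 of 4 arrays.

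Median foreground and background intensity values were corrected with normexp (offset 50) in limma 3.58.1 (R 4.3.3), followed by loess within each array, where control spots had weight 0. Spots of a probe were averaged. Of 55681 probes, 28026 had a RefSeq symbol on GRCm38.p6, used for names, and 27655 kept their accession. A probe was kept if either channel was well above background on 3 or more of the 4 arrays, and the brightest stood for a gene. The array of replicate 1 has no flags, which were rebuilt from the spread of negative controls (this matched the deposited flags for 97.6% to 100% of spots where both exist). Ratios were tested against 0 with limma. The fit was also run on simulated independent ratios without dye bias. Their planted changes were larger than any member's mean ratio in the main fit, so smaller changes were not covered. Levels are log2 signals after scaling average brightness between arrays (Aquantile). Same-numbered samples share an array, and their deviations from group means correlated at 0.175, 0.166, 0.564 and 0.528 for replicates 1 to 4.

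Named genes were the members, genes of lists other than cell type markers past the threshold in the ratio fit or with the array as a random block, the 3 genes of smallest p with 1 sign on 4 of 4 arrays in each list, and the 3 genes closest in level to Wnt10b, Wnt5a, Sfrp5 and Mest. Members, lists and tests were chosen with earlier results of these data known. The alternatives covered background correction, scaling, the dim-probe filter, the choice of probe, the variance model, the pairing, the deposited value table and leaving out each replicate.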

Additional observations from a re-analysis of the deposited data

Results flagged for a closer look

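Of 30 groups of 4 values examined (the Ad/NICD levels, WT levels and ratios of the 10 genes), 4 held a sample far from the others by Dixon's ratio, the gap to the nearest sample over the whole range. Chance flags about 1 in 20 such groups. In Ad/NICD samples, Dkk3 in replicate 3 was far above the others, at a log2 signal of 8.80 (ratio 0.866). In WT samples, replicate 4 was far below the others for Wnt5a (8.90, ratio 0.868), Sfrp4 (9.51, ratio 0.872) and Dkk3 (7.54, ratio 0.874). These 3 values come from 1 sample and are not independent.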

How the results depend on the processing

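Under the 10 alternatives other than leaving out a replicate, 98 of 100 ratios of the 10 genes kept their direction and their side of the threshold. The other 2 reversed when arrays were centred on their medians, Sfrp2 at -0.3728 and Sfrp5 at -0.3898, both below the median of all gene names of -0.32 under that scaling. Over all 14 alternatives the 20 other named genes had 276 values, of which 260 kept both, 7 reversed, 8 were values of Bmp3 that missed the threshold and 1 was Cdkn1c, which passed with the random block. With median centring Notum was at -0.291, Nkd2 at -0.418, Csnk1d at -0.102, Apc2 at -0.157, Pygo2 at -0.107 and Bcl9l at -0.0906. All of these but Nkd2 still lay above the median of all gene names of -0.32 under that scaling. Axin2 ran from -0.00768 (without replicate 2) to 0.1102 when 1 replicate was left out. Wnt7b, Wnt16, Lgr4 and Kremen2 had no value under the filter on both channels. Alternatives for these genes, and the counts of members without replicate 4, were chosen after seeing the data. Counts of 0 members and 0 Wnt pathway genes held under all alternatives run. The 12 gene names past the threshold became 4 with the scanner's processed signals, 3 with the deposited value table, 0 with median centring, 0 with no filter on dim probes and 0 with eBayes trend and robust settings. Without the replicate block they were 258 and with the array as a random replicate block 500. Leaving out 1 replicate gave 0 to 43, with 0 without replicate 1, 2 or 3. The cause of these moves was not tested. Leaving out each replicate in turn gave ratios of 0.066 to 0.17 for Wnt10b, -0.45 to -0.11 for Wnt5a, -0.36 to -0.22 for Wnt11, -0.16 to 0.088 for Sfrp1, -0.63 to 0.69 for Sfrp2, 0.61 to 1.16 for Sfrp4, -0.044 to 0.27 for Sfrp5, 0.12 to 0.52 for Dkk2, -0.71 to -0.11 for Dkk3 and -0.78 to -0.065 for Mest. Sfrp1 was above 0 without replicate 1, and Sfrp2 and Sfrp5 were below 0 without replicate 4. With 4 arrays, intervals for Sfrp2, Sfrp4, Dkk3 and Mest include changes of 2-fold or more.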
